A study of Mus musculus with 4 samples.

Results

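The Hedgehog pathway genes described here were 8 genes chosen by symbol from the deposited tables: the ligand Shh, the receptors Ptch1 and Hhip, the signal transducer Smo, the inhibitor Sufu and the transcription factors Gli1, Gli2 and Gli3. They are 8 of the 23420 genes listed for each replicate. They were selected with the rise of Gli1 in gentamicin-treated non-hair cells already known. Values of the 8 genes in that comparison are therefore given as a description, without a test. All 8 had at least 100 recovered reads over the 12 replicates and were among the 16077 genes tested, although Shh had only 135 reads, 79 of them in control non-hair cells.

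Hedgehog ligands bind Ptch1, which otherwise holds Smo inactive, and active Smo signals through the primary cilium to the Gli transcription factors. Sufu binds and restrains Gli proteins. Gli2 and Gli3 can act as activators or, after proteolytic processing, as repressors, whereas Gli1 is an activator and, together with Ptch1 and Hhip, is a widely used transcriptional readout of the pathway. In the embryonic inner ear, Shh released by the notochord, the floor plate and later the spiral ganglion takes part in ventral patterning and in the timing of hair cell differentiation.

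The data came from cochleae of postnatal day 1 mice of the CD1 strain that carried an Atoh1-GFP reporter, in which GFP marks hair cells. The organs were cultured overnight in serum-free medium with penicillin and then kept as controls or treated with 0.5 mM gentamicin, an aminoglycoside antibiotic toxic to hair cells, for 3 h. GFP-positive hair cells (HC) and GFP-negative non-hair cells (NHC) were separated by flow sorting, giving HC control, HC gentamicin, NHC control and NHC gentamicin groups of 3 biological replicates each. NHC pool all other cells of the dissected tissue, so a difference in NHC can come from any of them, and fewer cells of a type cannot be told apart from less RNA per cell. All 4 groups carried the reporter, and the penicillin was present in all cultures.

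Promoter windows from RefSeq (build GRCm38.p6, the assembly also called mm10) reached from 250 bases before to 50 bases after a gene's annotated start. Windows were found for 6 of the 8 genes, Gli2, Gli3, Ptch1, Hhip, Smo and Sufu. Those of Ptch1, Gli2, Smo and Hhip are shown, because in each of these genes the hair cell replicates with and without gentamicin did not overlap. Shh, with very few reads, did not overlap either but had no window. The share of all genes whose hair cell groups were separated in this way is not given, here or below. They are written 5′ to 3′ on the strand of the gene, and capitals mark CCACCC or its reverse complement GGGTGG.
Ptch1 (chr13:63565686-63565985, minus strand): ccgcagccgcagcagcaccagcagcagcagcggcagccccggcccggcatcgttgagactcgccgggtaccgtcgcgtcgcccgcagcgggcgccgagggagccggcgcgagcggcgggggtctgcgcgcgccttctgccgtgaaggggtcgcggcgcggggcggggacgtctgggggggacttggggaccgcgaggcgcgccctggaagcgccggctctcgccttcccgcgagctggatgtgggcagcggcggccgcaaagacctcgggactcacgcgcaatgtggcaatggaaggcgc
Gli2 (chr1:119053570-119053869, minus strand): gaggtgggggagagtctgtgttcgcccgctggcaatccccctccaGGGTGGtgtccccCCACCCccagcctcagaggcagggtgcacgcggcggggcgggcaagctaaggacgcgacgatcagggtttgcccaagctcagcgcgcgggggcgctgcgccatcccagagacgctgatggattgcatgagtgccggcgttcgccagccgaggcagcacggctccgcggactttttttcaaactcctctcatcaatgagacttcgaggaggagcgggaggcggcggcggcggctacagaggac
Smo (chr6:29735247-29735546, plus strand): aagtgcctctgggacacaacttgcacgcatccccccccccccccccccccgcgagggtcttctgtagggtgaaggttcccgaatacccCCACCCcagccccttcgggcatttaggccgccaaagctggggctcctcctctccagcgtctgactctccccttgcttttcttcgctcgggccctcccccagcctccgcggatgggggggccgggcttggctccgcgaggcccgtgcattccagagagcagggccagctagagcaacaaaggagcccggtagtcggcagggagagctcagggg
Hhip (chr8:80057959-80058258, minus strand): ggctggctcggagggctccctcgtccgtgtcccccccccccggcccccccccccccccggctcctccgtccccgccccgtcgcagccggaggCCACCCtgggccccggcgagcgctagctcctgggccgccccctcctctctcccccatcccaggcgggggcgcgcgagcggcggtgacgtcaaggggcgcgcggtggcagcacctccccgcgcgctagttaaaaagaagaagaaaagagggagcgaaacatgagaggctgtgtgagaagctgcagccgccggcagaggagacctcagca
The window of Ptch1 belongs to a start inside the gene's annotated span (chr13:63508328-63573598). The Gli consensus GACCACCCA was searched on both strands and was matched in 0 of the 6 windows, exactly or with 1 mismatch. Over the 32851 windows of the table, 0.253% held an exact match and 6.74% a match with at most 1 mismatch. The shorter core CCACCC, which lies inside that consensus, was searched after the longer motif had given no match. It was present in 4 of the 6 windows, those of Gli2 (2 matches), Gli3, Smo and Hhip (1 match each), and in 31.5% of all windows. These matches describe letters only, and none was tested for binding.

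Per replicate, 22400402 to 28151968 reads were recovered on genes. Values below are the deposited normalized read numbers, in which 1 marks no reads, and levels of different genes are compared only after taking off this 1 and dividing by exon length in kilobases. Hair cell markers fitted the sort: their summed level was 12022 to 12463 in control HC and 262 to 286 in control NHC, and 10 of 10 were higher in HC. Supporting cell markers did not follow the sort, with sums of 2076 to 2482 in control HC and 1241 to 1866 in control NHC. NHC gentamicin replicate 2 stood apart from the other gentamicin-treated NHC replicates. Its summed spiral ganglion neuron markers were 0.27 times the control mean, its proliferation markers 1.51 times and its mesenchyme markers 1.44 times, so the NHC log2 fold changes of the 8 genes are also given without it. HC gentamicin replicate 2 stood apart from the other treated HC replicates in 3 lists: its summed supporting cell markers were 0.47 times the control mean, cartilage and bone markers 0.37 times and Schwann cell and glia markers 0.45 times, against 0.69 to 0.79, 0.60 to 0.62 and 0.69 to 0.81 times in the others.

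In untreated cultures, 6 of the 8 genes differed between the sorted populations. Gli1, Gli3, Gli2, Smo and Shh were lower in control HC than in control NHC, and Hhip was higher. A gene was counted as different when its fold change exceeded 1.2 and limma gave an unadjusted p under 0.01. Of the 8 genes, 5 were lower in HC, beside 37.7% of all genes tested, and 1 was higher, beside 28.1%. The median log2 difference was -0.88 over the 8 genes and -0.12 over all genes tested. With TMM scaling of the recovered reads the median of all genes was -0.01, and the 6 calls held.

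**Figure D1:**
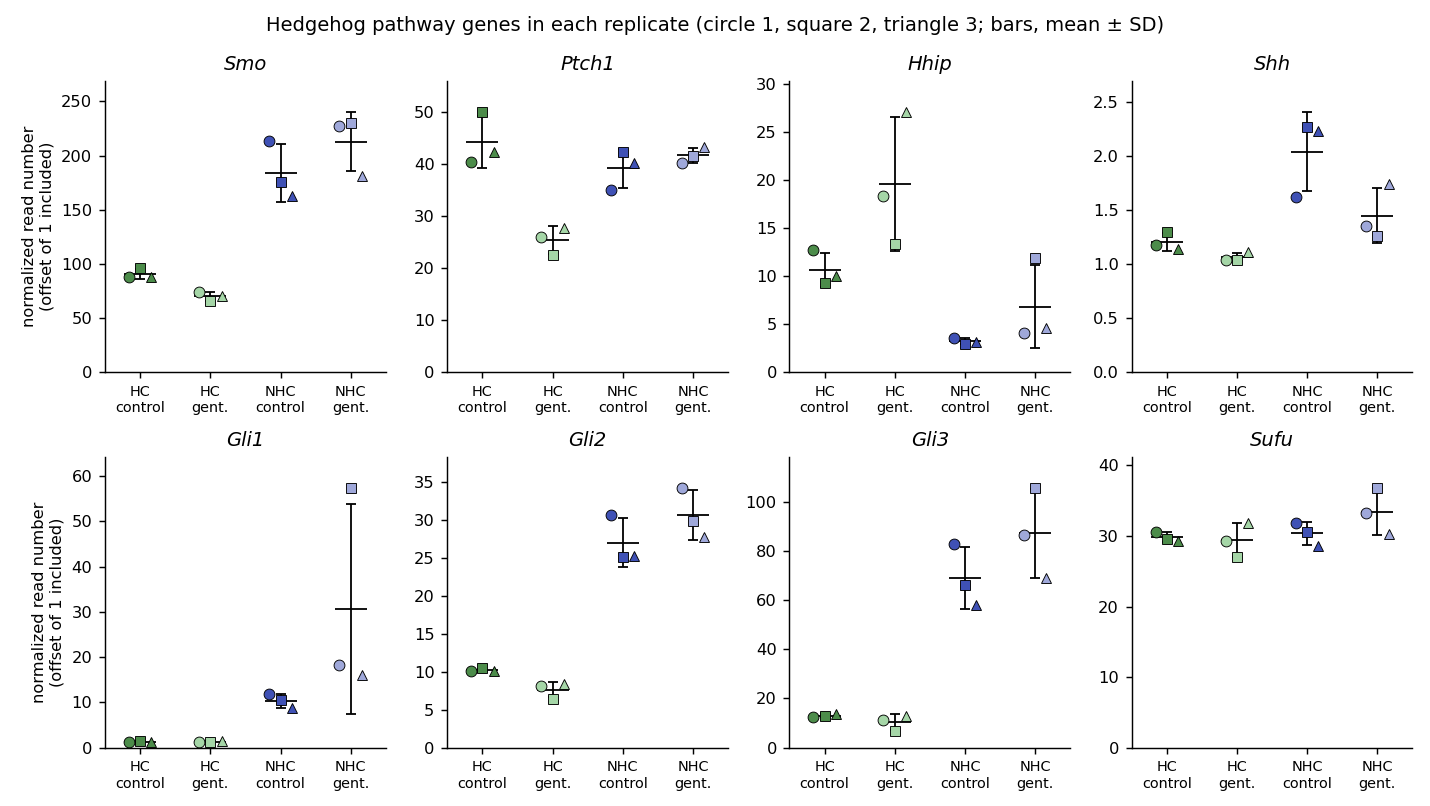
Normalized read numbers (y axis, linear, starting at 0) of the 8 genes in each replicate of HC control, HC gentamicin, NHC control and NHC gentamicin; horizontal bars and whiskers give the mean ± SD (n = 3). Gli1 lies between 1.17 and 1.53 in all 6 HC replicates, Ptch1 is lowest in gentamicin-treated HC, and NHC gentamicin replicate 2 is the highest NHC point for Gli1, Hhip, Gli3, Smo and Sufu.

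Gli1 was close to the lowest possible value in hair cells. Its normalized read numbers were 1.17, 1.43 and 1.18 in control HC and 11.8, 10.5 and 8.76 in control NHC, and the groups did not overlap. The log2 difference was -3.03 (SE 0.38, limma adjusted p = 1.72e-05) and depended on the 1 added to each value, becoming -4.77 with an offset of 0.1. Only 18 reads fell on Gli1 in the 3 control HC replicates together and 703 in control NHC. Taken as a level above 1, Gli1 in control HC was 2.80% of the NHC mean, while summed mesenchyme markers stood at 8.96% and summed endothelial markers at 6.51%. Gli1 shares 62 bases of exon with Arhgap9 and 265 with Gm47200 on the opposite strand, and reads were not separated by strand.

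Gli2 and Gli3, the factors that carry most repressor and activator functions upstream of Gli1, had reads in every replicate of both populations. Gli3 was 12.4, 13.0 and 13.8 in control HC and 82.8, 66.2 and 58.0 in control NHC, a log2 difference of -2.39 (SE 0.23, limma adjusted p = 1.77e-06). Gli2 was 10.1, 10.5 and 10.1 in control HC and 30.7, 25.2 and 25.2 in control NHC, a log2 difference of -1.40 (SE 0.13, limma adjusted p = 1.59e-06). The groups did not overlap for either gene. The control HC levels of Gli3 and Gli2 were 17.7% and 35.4% of the NHC mean. Summed markers stood at 29.6% for cartilage and bone, 34.4% for pericyte and smooth muscle and 39.2% for Schwann cell and glia. Lower shares were found for markers of mesenchyme (8.96%), endothelial cells (6.51%), proliferating cells (8.81%) and macrophages (10.04%). Higher shares were found for markers of spiral ganglion neurons (117%) and supporting cells (152%). The part of other cells in the HC levels of Gli2 and Gli3 was not tested.

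Among the receptors, Smo followed the Gli factors and Ptch1 did not. Smo was 87.9, 96.1 and 87.9 in control HC and 213, 176 and 162 in control NHC, a log2 difference of -1.01 (SE 0.11, limma adjusted p = 7.43e-06). Ptch1 was 40.4, 49.9 and 42.3 in control HC and 35.1, 42.3 and 40.2 in control NHC, and these ranges overlapped. Its log2 difference of 0.17 (95% interval -0.06 to 0.41, limma adjusted p = 0.164) did not pass the test.

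Hhip, a membrane protein that binds and sequesters Hedgehog ligands, showed the opposite distribution. It was 12.6, 9.21 and 10.03 in control HC and 3.52, 2.90 and 3.16 in control NHC, a log2 difference of 1.73 (SE 0.37, limma adjusted p = 0.00115). Every control HC replicate was above every control NHC replicate. Hhip shares 175 bases of exon with the small RNA gene Gm27820 on the opposite strand.

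The control populations differed in Sufu by less than the spread of the replicates. It was 30.6, 29.6 and 29.3 in control HC and 31.9, 30.6 and 28.6 in control NHC, a log2 difference of -0.02 (95% interval -0.23 to 0.18, limma adjusted p = 0.820). Its sign turned positive with TMM scaling. Shh was barely detected. It had 4, 7 and 3 reads in control HC and 15, 32 and 32 in control NHC, which gave a log2 difference of -0.75 on a scale with 1 added (SE 0.15, limma adjusted p = 8.54e-04). With an offset of 0.1 it was -1.89. Shh shares 446 and 361 bases of exon with 9530036O11Rik and Gm26894 on the opposite strand.

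Per kilobase, Smo was the highest of the 8 genes in both control populations, at 23.7 ± 1.25 (SD, n = 3) in HC and 48.4 ± 7.02 in NHC. In control HC the order continued with Ptch1 (5.54 ± 0.644), Sufu (4.31 ± 0.104), Gli3 (1.45 ± 0.0834), Gli2 (1.39 ± 0.0308), Hhip (1.06 ± 0.197), Shh (0.0716 ± 0.0297) and Gli1 (0.0646 ± 0.0354). Gli3 and Gli2 differed by less than the SD of Gli3, and so did Shh and Gli1 by less than either SD. In control NHC the order was Gli3 (8.16 ± 1.52), Ptch1 (4.89 ± 0.475), Sufu (4.39 ± 0.242), Gli2 (3.92 ± 0.481), Gli1 (2.31 ± 0.375), Shh (0.366 ± 0.128) and Hhip (0.242 ± 0.0343). There Sufu and Gli2 differed by less than the SD of Gli2, and Shh and Hhip by less than the SD of Shh, whereas Ptch1 and Sufu differed by slightly more than the SD of either.

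**Figure D2:**
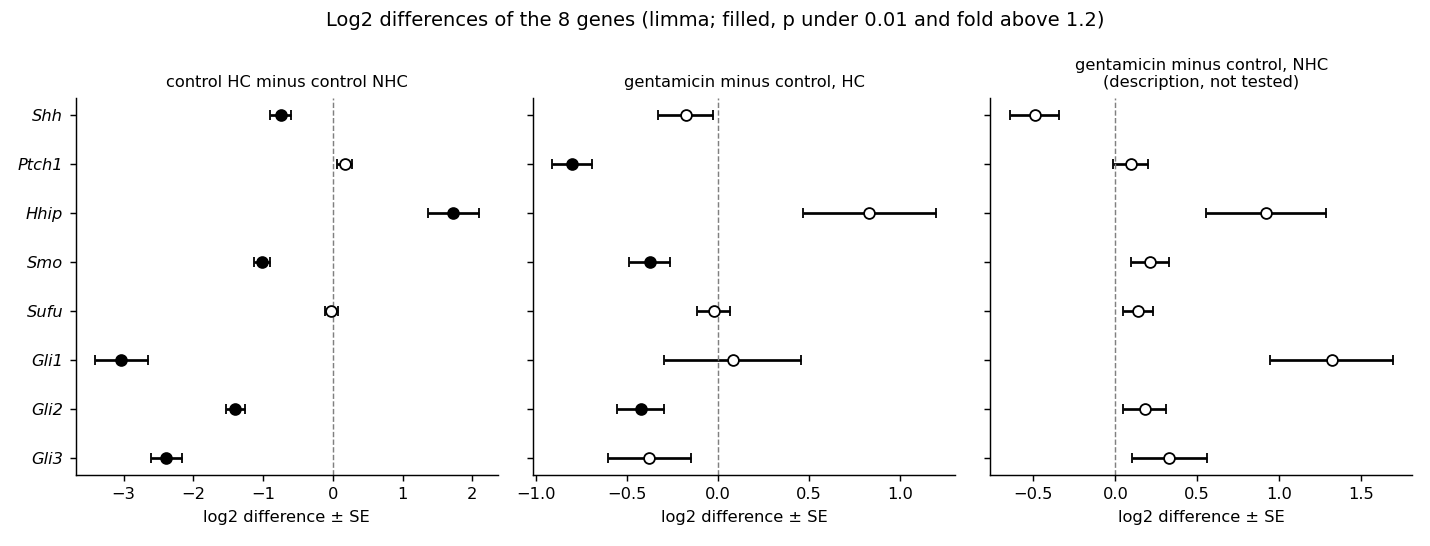
Log2 differences ± SE of the 8 genes (rows) between control HC and control NHC (left), between gentamicin and control in HC (middle) and in NHC (right; open points there mark a description without a test); filled points met both call criteria (p under 0.01 before adjustment, fold change over 1.2). On the left, 5 filled points lie below 0 and 1, Hhip, above 0, and Ptch1, Smo and Gli2 are filled and below 0 in the middle.

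Within 3 h of gentamicin, Ptch1, Gli2 and Smo fell in hair cells. Ptch1 decreased by 0.80 on the log2 scale, Gli2 by 0.42 and Smo by 0.37. None of the 8 genes met the criteria for a rise. The 3 genes that fell stand beside 14.8% of all genes tested, and the 0 that rose beside 12.7%, with 2037 genes higher and 2381 lower in the whole table. At an unadjusted p under 0.05, limma placed 1 of the 8, Hhip, higher and the same 3 lower. At that threshold 7104 of the 16077 genes tested passed in either direction. With scaling by total reads, 2774 genes were higher and 1591 lower.

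Ptch1, the receptor that is also a transcriptional target of Gli proteins, was 40.4, 49.9 and 42.3 in control HC and 25.9, 22.5 and 27.7 in gentamicin-treated HC. All gentamicin values lay below all control values. The log2 fold change was -0.80 (SE 0.11, limma adjusted p = 3.66e-04), it ranged from -0.87 to -0.71 over all alternatives, and it met the criteria in each of them. As a share of the control NHC mean, the level above 1 went from 113% in control HC to 63.9% in gentamicin-treated HC.

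Gli2 was 10.1, 10.5 and 10.1 in control HC and 8.09, 6.48 and 8.41 in gentamicin-treated HC (log2 fold change -0.42, SE 0.13, limma adjusted p = 0.0288). Smo was 87.9, 96.1 and 87.9 in control HC and 74.0, 65.6 and 70.3 in gentamicin-treated HC (log2 fold change -0.37, SE 0.11, limma adjusted p = 0.0268). The groups did not overlap for either gene. Both calls were lost with scaling by total reads (-0.34 and -0.28) and without HC control replicate 1, 2 or 3 or HC gentamicin replicate 2. Gli2 also lost its call with the 2 HC groups fitted alone and without HC gentamicin replicate 1, and Smo without HC gentamicin replicate 3.

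Hhip was 12.6, 9.21 and 10.03 in control HC and 18.4, 13.3 and 27.0 in gentamicin-treated HC, so that all treated values were above the control values. Its log2 fold change of 0.83 (SE 0.37, 95% interval 0.03 to 1.64, limma adjusted p = 0.102) did not meet the criteria. The standard error was set by all 4 groups, of which NHC gentamicin had the widest relative spread for this gene.

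The other Gli factors, Shh and Sufu gave no call in hair cells. Gli3 was 12.4, 13.0 and 13.8 in control HC and 11.4, 6.86 and 13.0 in gentamicin-treated HC, with overlapping groups and a log2 fold change of -0.38 (95% interval -0.87 to 0.12, limma adjusted p = 0.225), which became -0.10 without HC gentamicin replicate 2. Gli1 was 1.27, 1.21 and 1.53 after gentamicin, from 7, 5 and 15 reads, against 4, 10 and 4 reads in control HC. With so few reads no change was detected (log2 fold change 0.08, 95% interval -0.74 to 0.91, limma adjusted p = 0.890). The standard error of 0.38 behind this interval was set by all 4 groups, as for Hhip. It was 0.13 with the 2 HC groups fitted alone. Sufu was 29.3, 27.0 and 31.9 after gentamicin (log2 fold change -0.02, 95% interval -0.23 to 0.18, limma adjusted p = 0.876), and its sign turned positive with scaling by total reads. Shh had 1, 1 and 3 reads after gentamicin, at or under the limit of 3 reads per library that a count of 0 allows, and no fold change is read from it.

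Markers of other cells moved in the same comparison. Gentamicin-treated HC had lower levels of 3 of 10 supporting cell markers (Gjb2, Hes5 and Lfng), 4 of 10 mesenchyme markers, 4 of 8 cartilage and bone markers, 5 of 8 pericyte and smooth muscle markers, 3 of 9 Schwann cell and glia markers and 1 of 10 endothelial markers. None of these 6 lists held a marker that rose. Of 10 spiral ganglion neuron markers and 8 proliferating cell markers, 0 fell and 0 rose. Their median log2 fold changes were -0.51 and -0.31. These counts stand beside 14.8% of all genes tested that fell and 12.7% that rose. Of 10 macrophage markers, 2 rose (Cd68 and Fcgr1) and none fell, with a median log2 fold change of 0.07 over the list. A mean under 2 in at least 1 group was found for 8 of these 10. Summed supporting cell markers ranged from 2076 to 2482 in control HC and from 1045 to 1755 in gentamicin-treated HC, and summed mesenchyme markers from 545 to 810 and from 372 to 456. HC gentamicin replicate 2, the lowest in supporting cell markers, was also the lowest HC replicate for Ptch1, Gli2, Gli3 and Smo, and without it the log2 fold change was -0.72 for Ptch1, -0.31 for Gli2 and -0.33 for Smo. The part of these markers in the lower levels of Ptch1, Gli2 and Smo, and of the wider pathway genes described below as lower in treated HC, was not tested. The comparison of the populations and the response to gentamicin in HC share the control HC replicates, as the former and the response in NHC share control NHC, so that these comparisons are not independent.

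**Figure D3:**
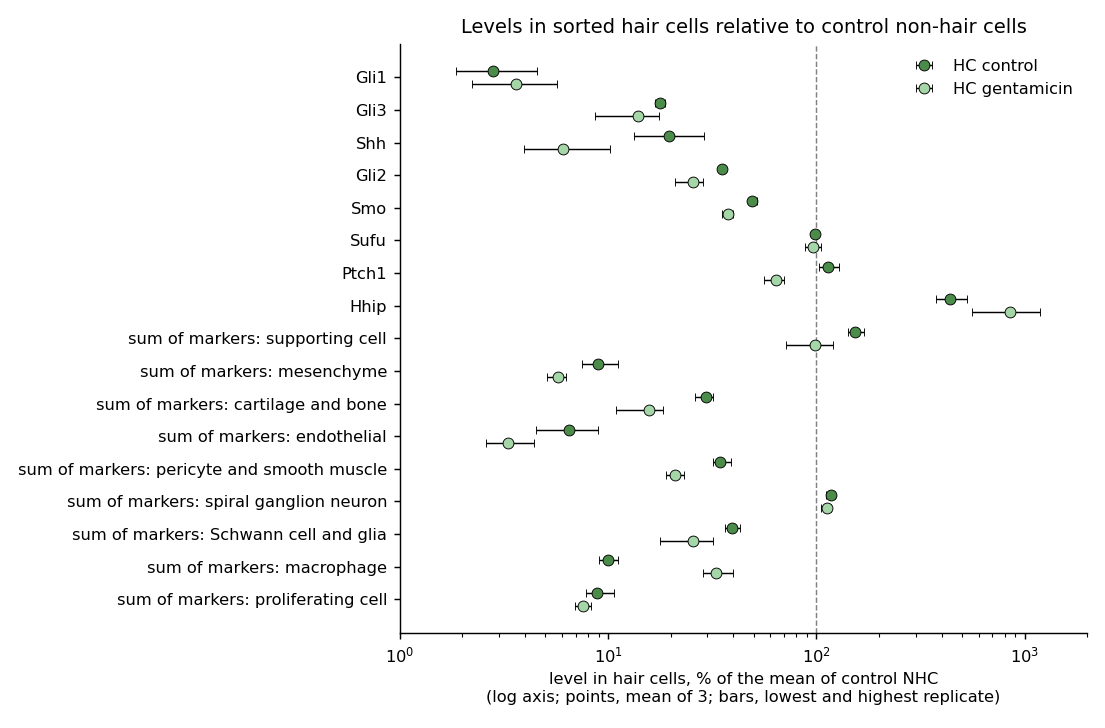
Level above 1 in HC control (dark) and HC gentamicin (light) as a percent of the mean of control NHC, on a log axis, for the 8 genes and for the summed markers of 9 other cell types or states; points are means of 3 replicates and bars reach from the lowest to the highest replicate. Gli1 lies at 2.80% and 3.61%, below summed mesenchyme markers in control HC (8.96%), Sufu lies near 100% in both, and Hhip lies at 439% and 846%.

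In non-hair cells, Gli1 and Hhip were higher in all 3 gentamicin replicates than in any control replicate. Gli1 was 11.8, 10.5 and 8.76 in control NHC and 18.3, 57.4 and 16.1 in gentamicin-treated NHC, a log2 fold change of 1.32 (SE 0.38). Hhip was 3.52, 2.90 and 3.16 in control NHC and 4.05, 11.8 and 4.55 in gentamicin-treated NHC, a log2 fold change of 0.92 (SE 0.37). These values led to the choice of the genes or come from the same contrast, and no test is given. The share of all genes whose NHC groups were separated in this way is not given either. Both genes were highest in NHC gentamicin replicate 2. Without it, the log2 fold change was 0.74 (SE 0.17) for Gli1 and 0.43 (SE 0.26) for Hhip. With the added 1 included, the 2 other replicates stood at 1.77 and 1.55 times the control mean for Gli1 and at 1.27 and 1.42 times for Hhip.

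Ptch1, a Gli target like them, showed no such separation. It was 35.1, 42.3 and 40.2 in control NHC and 40.3, 41.5 and 43.2 in gentamicin-treated NHC (log2 fold change 0.09, SE 0.11). Gentamicin replicate 2 was at 1.06 times the control mean, with the added 1 included. Gli3 was 82.8, 66.2 and 58.0 in control NHC and 86.6, 106 and 69.1 after gentamicin, and Smo was 213, 176 and 162 and then 227, 229.8 and 181. The groups overlapped for both (log2 fold changes 0.33 and 0.21). Gli2 (0.18) and Sufu (0.14) also overlapped between groups. Without NHC gentamicin replicate 2 the log2 fold change was 0.18 for Gli3, 0.15 for Smo, 0.19 for Gli2, 0.07 for Sufu, 0.09 for Ptch1 and -0.40 for Shh. Shh had 15, 32 and 32 reads in control NHC and 9, 7 and 21 after gentamicin, and its log2 fold change of -0.49 became -1.10 with an offset of 0.1 in place of 1.

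The replicate in which Gli1 was highest differed in its cell markers as well. In NHC gentamicin replicate 2, summed markers of proliferating cells were 1.51 times, of mesenchyme 1.44 times and of cartilage and bone 1.29 times the control mean. Summed supporting cell markers were at 0.69 times and spiral ganglion neuron markers at 0.27 times. Gli1 was at 5.53 times, Hhip at 3.70 times and Acan, a cartilage matrix gene named after its values were seen, at 3.36 times. Ratios of single genes here include the 1 added to each value, which draws them toward 1. The marker sums were taken without it, so sizes of the gene and marker ratios are not comparable. In replicate 1 the neuron markers were at 0.55 times, with Gli1 at 1.77 times. Summed neuron markers also spread widely without drug, at 806, 1876 and 1820 in control NHC, against 822, 405 and 1425 after gentamicin. Gentamicin replicate 1 was thus close to control replicate 1 in these markers. In replicate 3 no summed list was above 1.24 or below 0.86 times the control mean and Gli1 was at 1.55 times. The part of the cell makeup in the level of Gli1 was not tested.

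**Figure D4:**
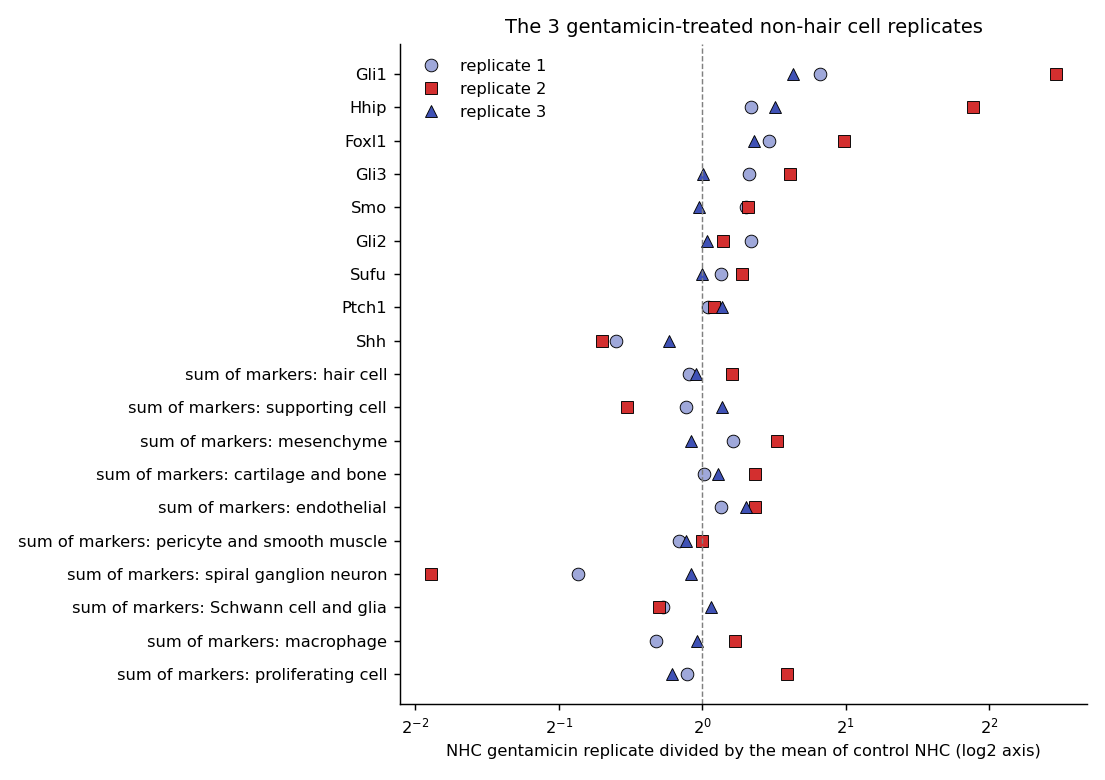
Each of the 3 gentamicin-treated NHC replicates divided by the mean of the 3 control NHC replicates (log2 axis), for the 8 genes, Foxl1 and the summed markers of 10 cell types or states. Replicate 2 (squares) lies farthest right for Gli1 (5.53), Hhip (3.70) and Foxl1 (1.99) and farthest left for spiral ganglion neuron markers (0.27).

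The wider pathway was followed with 49 further listed genes in roles around the 8, of which 46 had at least 100 reads. These lists were drawn up with earlier results of these data known. Calls, p-values and counts for the 46 are therefore not those of lists fixed in advance. In hair cells, 5 of the 46 rose and 11 fell after gentamicin, beside 12.7% and 14.8% of all genes tested, with a median log2 fold change of -0.24 beside -0.09 over all genes tested. In non-hair cells, 1 rose and 1 fell, beside 3.18% and 2.26% of all genes tested, with a median of 0.02 beside -0.01. Neither of these NHC genes had an adjusted p under 0.05.

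Of 7 ligands and proteins of ligand processing and release other than Shh, none met the criteria in HC or NHC after gentamicin. At an unadjusted p under 0.05 in HC, Dhh, Scube1 and Scube3 were lower and Disp1 was higher, beside 7104 of the 16077 genes tested in either direction. At an adjusted p under 0.05 only Disp1 was changed (log2 fold change 0.24, limma adjusted p = 0.0206, a fold change under 1.2). At that threshold 2374 of all genes tested were higher and 2958 lower. Dhh, a ligand made by Schwann cells among others, was the most abundant of the 3 ligands per kilobase, at 2.65 ± 0.409 (SD, n = 3) in control NHC and 0.626 ± 0.0628 in control HC. Its normalized read numbers were 4.04, 3.74 and 3.49 in control HC, 2.81, 2.42 and 3.28 after gentamicin, 10.6, 13.5 and 13.9 in control NHC and 12.9, 12.0 and 15.9 after gentamicin. Ihh, the ligand of growth plate cartilage, stayed between 1.30 and 1.87 in all 12 replicates.

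Boc and Gas1, co-receptors which bind Hedgehog ligands together with Ptch1, fell in hair cells. They were 2 of 4 further co-receptors tested, and none of the 4 rose, beside 14.8% of all genes tested that fell and 12.7% that rose. The median log2 fold change was -0.62 over the 4 and -0.09 over all genes tested. Boc was 77.6, 81.2 and 79.6 in control HC and 50.8, 36.1 and 57.6 in gentamicin-treated HC (log2 fold change -0.75, SE 0.15, limma adjusted p = 0.00296). Gas1 was 169, 205 and 222 in control HC and 122, 115 and 155 in gentamicin-treated HC (log2 fold change -0.61, SE 0.14, limma adjusted p = 0.00711). Gas1 was also lower in NHC, at 457, 463 and 591 after gentamicin against 715, 683 and 663 in control (log2 fold change -0.46, SE 0.14). That call had a limma adjusted p of 0.145 and was lost without any 1 NHC replicate other than gentamicin replicate 3.

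Cdon, a relative of Boc, was 52.4, 53.0 and 62.9 in control HC and 58.2, 49.2 and 57.2 after gentamicin, with a log2 fold change of -0.03 (limma adjusted p = 0.935). Lrp2, which binds Shh on the cell surface, was 13.4, 19.9 and 14.6 and then 8.30, 9.24 and 13.6, with overlapping groups (limma adjusted p = 0.262). All 4 were lower in control HC than in control NHC, beside 37.7% of all genes tested.

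Cytoplasmic and ciliary transducers other than Sufu moved in both directions in hair cells, with 5 of 19 higher and 5 lower, beside 12.7% and 14.8% of all genes tested (median log2 fold change -0.08), and none met the criteria in NHC. Stk36, a Fused-family kinase, showed the largest fall of the 19. It was 88.1, 90.8 and 91.2 in control HC and 32.8, 36.4 and 49.2 in gentamicin-treated HC (log2 fold change -1.21, SE 0.16, limma adjusted p = 2.75e-04). Dyrk1b, a kinase reported to act on Gli activity, was 123, 110.2 and 114 and then 60.7, 60.3 and 71.2 (log2 fold change -0.86, SE 0.12, limma adjusted p = 5.16e-04). Both genes were higher in control HC than in control NHC, at log2 differences of 2.17 and 1.38. Prkaca, the catalytic subunit of protein kinase A that phosphorylates Gli proteins, was 181, 173 and 167 and then 127, 121 and 118 (log2 fold change -0.50, SE 0.06, limma adjusted p = 1.99e-04). Tulp3, an adaptor for ciliary trafficking (-0.54, and -0.35 without HC gentamicin replicate 2), and Spop, a substrate adaptor for Cul3 ubiquitin ligases (-0.36), were also lower.

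The transducers that rose in hair cells were Efcab7, Cul3, Dyrk1a, Btrc and Csnk1a1. Efcab7, which anchors the Evc complex near the base of the cilium, was 17.6, 14.8 and 15.9 in control HC and 28.4, 27.9 and 23.9 in gentamicin-treated HC (log2 fold change 0.73, SE 0.14, limma adjusted p = 0.00266). Cul3, the scaffold of the ubiquitin ligase that works with Spop, was 114, 103 and 122 and then 162, 185 and 162 (log2 fold change 0.58, SE 0.10, limma adjusted p = 0.00134). Treated and control values did not overlap for any of the 5. Dyrk1a rose by 0.44, Btrc, the F-box protein that targets phosphorylated Gli for processing, by 0.40 and Csnk1a1, a casein kinase that phosphorylates Gli and Smo, by 0.29. Kif7, Gpr161, Prkacb, Gsk3b, Evc2 and Iqce did not pass, nor did Adrbk1, Dyrk2 and Evc.

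Of 16 further known Gli targets, 4 fell in hair cells and none rose, beside 14.8% and 12.7% of all genes tested (median log2 fold change -0.36). These were Ccnd2 (-1.12), Rab34 (-0.79), Bmp4 (-0.79) and Mycn (-0.65). Ccnd2, a G1 cyclin, was 6.92, 13.1 and 7.48 in control HC and 3.60, 3.89 and 4.67 in gentamicin-treated HC. Mycn, a transcription factor of proliferating progenitors, was 46.2, 41.2 and 49.2 and then 28.6, 26.8 and 31.8 (SE 0.11, limma adjusted p = 0.00130). Of the 4, Mycn alone was higher in control HC than in control NHC (log2 difference 0.52), and the others were lower there, with log2 differences of -2.35 to -5.19. Summed mesenchyme markers were at 0.57 to 0.70 times and endothelial markers at 0.40 to 0.68 times the control mean in the same treated HC replicates, and their part in these falls was not tested. With an offset of 0.1 the log2 fold change of Bmp4 was -1.18, and its call was lost without HC control replicate 2 and without HC gentamicin replicate 1 or 2.

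In non-hair cells, Foxl1, a forkhead gene of the mesenchyme, was the one target among the 16 that rose. It was 1.68, 1.77 and 1.83 in control NHC and 2.43, 3.50 and 2.26 in gentamicin-treated NHC (log2 fold change 0.61, SE 0.15, limma adjusted p = 0.0935), and the log2 fold change was 0.41 without NHC gentamicin replicate 2 and 1.03 with an offset of 0.1. It rested on 240 reads over all replicates. Other mesenchymal targets, Foxf2, Foxd1 and Osr1, were not called and had log2 fold changes of 0.40 each with overlapping groups. Their highest NHC values, 204, 39.8 and 72.6, were all in NHC gentamicin replicate 2. The median log2 fold change over the 16 targets was -0.005. Targets with negative values included Foxf1 (-0.09), Foxd2 (-0.03), Igfbp6 (-0.44) and Bmp4 (-0.36).

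**Figure D5:**
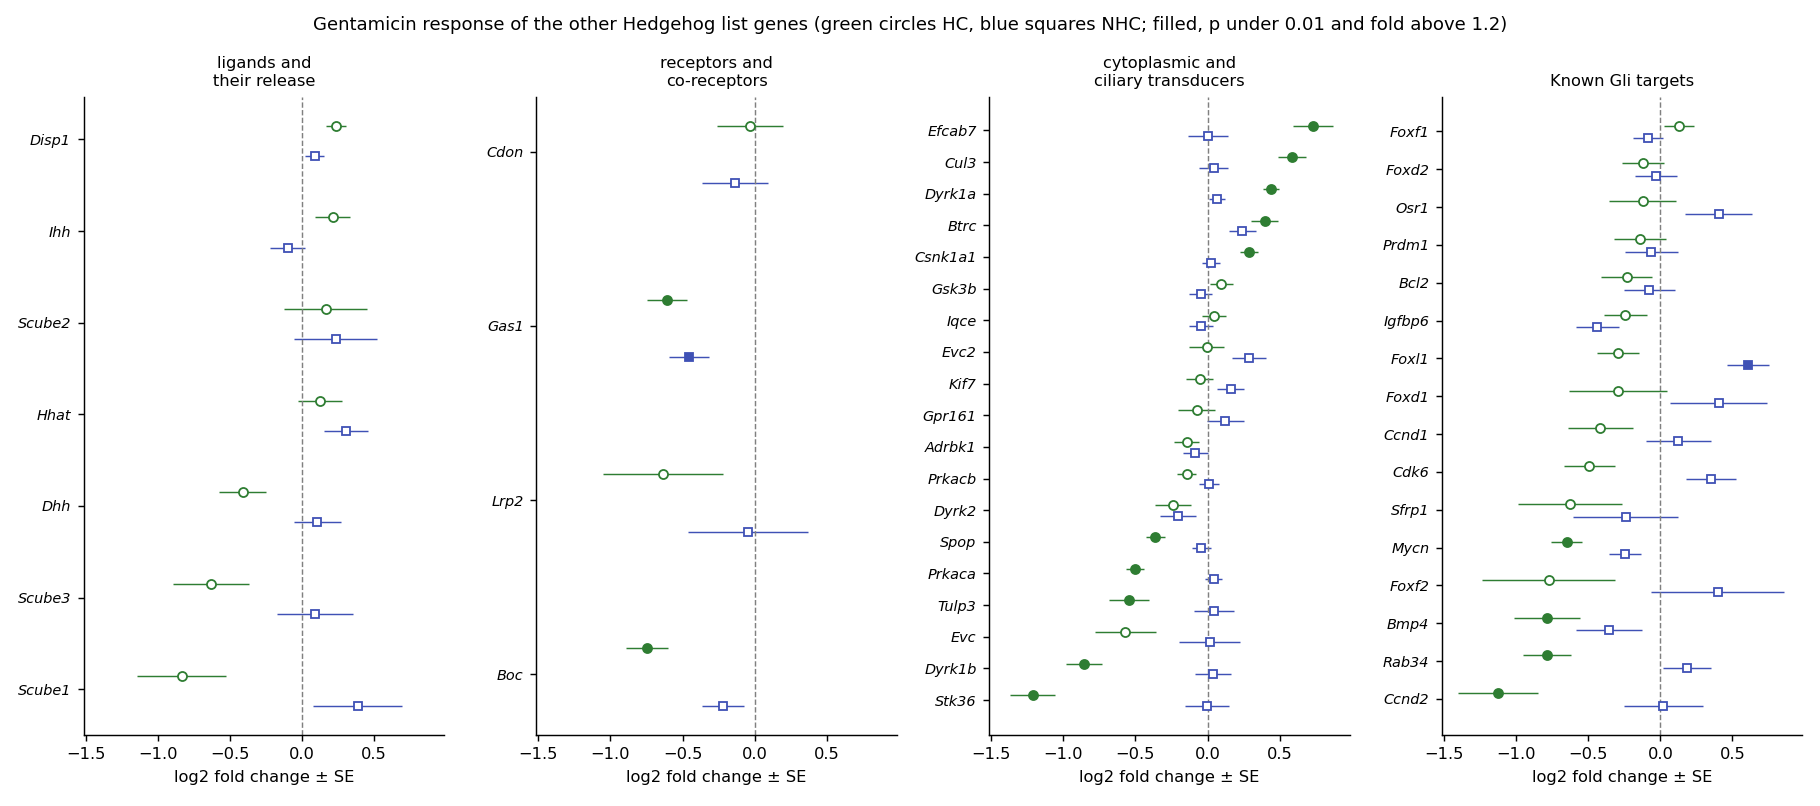
Log2 fold change ± SE after gentamicin in HC (circles) and NHC (squares) for the 46 further genes tested, in 4 panels by role and ordered by the HC value; filled symbols met both call criteria. In HC, filled circles lie on both sides of 0 among the transducers and only below 0 among co-receptors and targets; in NHC, Gas1 and Foxl1 are the filled squares.

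The 2 responses were compared directly for the 46 further genes by the interaction term of the same fit. At a limma adjusted p under 0.05, 10 of the 46 responded differently in HC and NHC, beside 13.4% of all genes tested. The HC response was the lower for 7 of them and the higher for Cul3, Dyrk1a and Efcab7. Among these 10, the largest difference was that of Stk36, at -1.21 (SE 0.22, limma adjusted p = 0.00690). The count was 7 without NHC gentamicin replicate 2, 6 without HC control replicate 2 and 5 without HC gentamicin replicate 2, NHC control replicate 2 or NHC gentamicin replicate 1.

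Across the 6 NHC replicates, the genes with the pattern most like that of Gli1 were Arap1, Ipo9, Wdr12, Usp1 and Chpf. Pearson correlations of their log2 values with Gli1 were 0.992 to 0.994, and 12967 genes whose NHC mean reached 5 were compared. All 5 were highest in NHC gentamicin replicate 2, as Usp1 shows with 36.9, 34.2 and 31.1 in control NHC and 41.1, 59.9 and 38.3 after gentamicin. For Ptch1 they were Dnmt3a, Phf21b, Dnase1l1, Lemd3 and Naa15, at 0.962 to 0.986. With 6 points from 6 libraries that share their treatment groups, these values are a description, and rank correlations over so few points tie: 106 genes ordered the replicates exactly as Gli1 did, among them 4 of its 5 (all but Arap1), and for Ptch1 2 of its 5, Dnmt3a and Lemd3, were among the 31 genes that reached the fifth highest rank correlation.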

How the data were processed

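Cochlear hair cells and non-hair cells were profiled by mRNA sequencing in 4 groups, each deposited as 1 sample with 3 replicate columns. Per the labels and the study's methods, 50 bp single-end reads from an mRNA library kit were aligned to mm10 with TopHat2 in PartekFlow. The authors deposited a normalized score per gene and replicate. Their methods name RPKM, but a value of exactly 1 read has the same size in genes from 57 to 21746 bp long (7805 values), so scores were taken as scaled reads with 1 added, without division by length. The smallest step gave whole reads (tolerance 0.02) for 74.3% to 75.9% of low values, too few for a count model. Reads behind each score follow from this step, and intervals cover replicate spread only.

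Log2 scores of the 16077 genes with at least 100 recovered reads entered 1 limma model of all 4 groups (limma 3.58.1, R 4.3.3; moderated variances with a mean trend; two-sided). The study's criteria, a fold change over 1.2 and p under 0.01 before adjustment, defined a call. Adjusted p-values are Benjamini-Hochberg values over all genes tested. The procedure was also run on simulated data, in which every gene had the same added variation and no library stood apart. That run therefore does not cover libraries such as NHC gentamicin replicate 2. Alternatives were other scalings, an offset of 0.1, minimums of 1000 reads and none, a replicate block, 2-group fits, other thresholds and each replicate left out.

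Named genes were the 8, further ligands and co-receptors, other pathway genes called after gentamicin, and the 5 genes most correlated with Gli1 or Ptch1. The members and lists were chosen with earlier results of these data known. Adrbk1 stands for Grk2 and Foxf1 for Foxf1a, and 3 further genes had under 100 reads. One gene of the wider lists is not reported here. Exon lengths and positions came from GENCODE M21. Column numbers paired control HC with control NHC, whose deviations from group means correlated at 0.216, 0.316 and 0.200 for equal numbers, but not the gentamicin columns with their controls.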

Additional observations from a re-analysis of the deposited data

Results flagged for a closer look

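The values below are the log2 response to gentamicin in hair cells minus that in non-hair cells. They were -0.605 (SE 0.185) for Gli2, -0.706 (SE 0.321) for Gli3 and -0.894 (SE 0.152) for Ptch1. In these 3 genes every gentamicin-treated HC replicate lay below the control HC mean and every gentamicin-treated NHC replicate above the control NHC mean. This difference was not tested for these 3 genes, because their values in NHC belong to the contrast from which they were chosen. The share of all genes with this replicate pattern is not given. Gli1 (-1.24, SE 0.533) and Smo (-0.586, SE 0.161) had values in the same direction, without the pattern in every replicate, and were likewise not tested. For Gli3 the lowest NHC value, 69.1 in gentamicin replicate 3, was barely above the control mean of 69.0. Its HC response was -0.10 without HC gentamicin replicate 2 and its NHC response 0.18 without NHC gentamicin replicate 2.

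Among the 46 further genes, 10 differed in limma's interaction test at an adjusted p under 0.05. The difference was -1.21 for Stk36, -0.894 for Dyrk1b, -0.546 for Prkaca and -0.319 for Spop among the transducers that fell in HC, and 0.542 for Cul3, 0.374 for Dyrk1a and 0.729 for Efcab7 among those that rose. It was -0.973 for Rab34, -0.900 for Foxl1 and -0.842 for Cdk6 among the Gli targets. Cdk6 met the criteria in neither population and is named here after its values were seen. For Foxl1 the NHC value was highest in gentamicin replicate 2, at 1.99 times the control mean with the added 1 included.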

How the results depend on the processing

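The fall of Ptch1 in HC and the 6 differences between the control populations kept direction and call under every alternative in which the gene was tested (Shh was not tested with a minimum of 1000 reads). Of the 8 genes, 3 fell in HC, but 1 with scaling by total reads and 1 with a fold change above 1.5, and 1 to 3 with a replicate left out. Of the other list genes, 5 rose in HC, but 1 with a fold change above 1.5. In NHC 1 rose, and 0 with a minimum of 1000 reads, with the 2 groups alone or at an adjusted p under 0.05 (1 to 3 with a replicate left out). In NHC 1 fell, and 0 with scaling by total reads, with the 2 groups alone, at an adjusted p under 0.05 or with a fold change above 1.5 (0 to 2 with a replicate left out). The interaction count of 10 was 6 with a fold change above 1.5 and 5 to 11 with a replicate left out. By rank correlation, with ties counted, 4 of 5 genes stayed nearest to Gli1 and 2 of 5 to Ptch1.

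Values near 0 changed sign. Gli1 in HC was -0.020 without HC gentamicin replicate 3 (range -0.020 to 0.175 with a replicate left out). Sufu in HC was 0.071 with scaling by total reads and 0.037 without HC gentamicin replicate 2 (range -0.083 to 0.037). Between populations Sufu was 0.095 with TMM scaling and 0.012 without NHC control replicate 1 (range -0.065 to 0.012). In each case the cause was not tested.

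With the replicate number as a block, 3 of the 8 genes fell and 0 rose in HC, and 5 were lower and 1 higher in control HC than in control NHC, so that the block changed no call of the 8. Equal numbers correlated at 0.0369 to 0.0523 between control and treated HC, where HC control replicate 3 correlated best with gentamicin replicate 1, and at -0.232 to 0.683 between control and treated NHC. Depth limits Shh and, in HC, Gli1.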
